A study of Arabidopsis thaliana and Zea mays with 12 samples.

Results

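The genes described here are 45 Arabidopsis thaliana genes of 3 families known for building, trimming or acetylating cell wall polysaccharides. They were taken by name from the probe annotation of the ATH1 array: every probe set assigned to exactly 1 gene whose symbol begins with GH9, CESA, CSL or TBL, with an optional leading AT. The rule itself used no measured value, although the members were chosen with earlier results of these data known. It found 15 GH9 endoglucanase genes, 8 cellulose synthase-like (CSL) genes and 22 TRICHOME BIREFRINGENCE-LIKE (TBL) genes, each read by 1 probe set, among 22746 probe sets. It found 0 CESA genes, so the catalytic subunits of cellulose synthase itself are not analysed here, and the set is described as endoglucanases, CSL enzymes and TBL proteins. The gene table used for symbols lists 21 genes named GH9, 7 named CESA, 30 named CSL and 41 named TBL.

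Leaves of plants labelled phenotype Br (3 arrays) were compared with leaves of plants labelled phenotype Ag (3 arrays). The labels give no treatment, mutant allele or transgene for either group and do not say what the abbreviations stand for. All plants were grown from seed for 2 weeks and harvested around the midpoint of their daily light period. Each array held RNA pooled from replicated plants, so a p-value here measures the spread between pools. The values are probe set intensities of a one-colour array, and their precision is limited by 3 arrays in each group.

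The plant primary wall is a network of cellulose microfibrils held in a matrix of xyloglucan, mannan, xylan and pectin. GH9 enzymes are endo-1,4-beta-glucanases: class A includes the membrane-anchored KORRIGAN, which is needed for cellulose synthesis, class B proteins are secreted, and class C proteins carry an additional carbohydrate-binding module. CSLA enzymes make the mannan backbone and CSLC enzymes the glucan backbone of xyloglucan, both in the Golgi. TBL proteins share a domain with O-acetyltransferases of wall polysaccharides, and several of them acetylate xylan or mannan.

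The arrays carried leaf RNA by the markers that could be read. The 4 measured mesophyll markers of 16 listed were RCA, LHCB4.1, LHCB4.2 and PSAE-1. Their intensities as deposited summed to between 16845 and 18257 on the Br arrays and between 18919 and 25197 on the Ag arrays, without overlap. The test described below used quantile-normalized values, and 0 of the 4 passed it. Their log2 differences were -0.38 to -0.33 as deposited (limma adjusted p = 0.24 to 0.44) and -0.10 to 0.056 after quantile normalization. The 1 measured root marker of 8, EXPA7, read at most 15.6 in Br and 17.0 in Ag. The 3 measured stomatal markers (SPCH, MUTE and FMA) of 13 listed for epidermis and stomata summed to between 77.0 and 96.1 in Br and between 48.0 and 79.2 in Ag, ranges that overlap. These markers did not share a direction. After quantile normalization the log2 differences were 0.58 for SPCH, 0.12 for FMA and -0.28 for the dim MUTE, each with overlapping groups. The lists for xylem, dividing cells and flowers had 0 members that could be matched by name to a probe set annotated to exactly 1 gene. In whole leaves, more cells of a type and more RNA per cell cannot be told apart. The first Br array stood apart: on the first principal component over all probe sets it lay at 5.57, against 34.5 and 42.6 for the other Br arrays and -32.8 to -24.6 for the Ag arrays. The ratio of 3' to 5' signal of the ubiquitin control was 1.04 ± 0.15 in Br and 2.04 ± 0.30 in Ag (SD, n = 3 each; two-sided exact permutation p = 0.10, the smallest that 3 against 3 can give). For actin it was 1.53 ± 0.29 in Br and 2.06 ± 0.25 in Ag (exact permutation p = 0.10). For GAPDH it was 0.766 ± 0.043 in Br and 0.865 ± 0.062 in Ag, with overlapping groups (exact permutation p = 0.20). The part of these differences in the results below was not tested.

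Of the 45 genes, 1 rose in Br, the class C endoglucanase gene GH9C2, 0 fell, and 44 did not pass. Differences were tested with limma on quantile-normalized log2(intensity + 16), and a gene was called where its Benjamini-Hochberg adjusted p, taken across the 22746 probe sets, was under 0.05. By the same rule 0.963% of all probe sets were called higher and 1.12% lower in Br, so 1 call among 45 is close to the background. More of the differences were positive than negative. The log2 difference was positive for 29 of the 45 genes (64.4%), against 49.6% of all probe sets, and its median was 0.12, against -0.0018 over all probe sets. With 1 array left out the median of the 45 genes was 0.098 to 0.28, highest without the first Br array. At an unadjusted p under 0.05, 11 genes (24.4%) were higher and 2 (4.44%) lower in Br, where all probe sets gave 8.23% and 7.87%. Because the members were chosen with earlier results of these data known, these shares, and those of the next paragraph, are descriptions and not tests.

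The separation of the arrays was counted as well. All 3 Br arrays read above all 3 Ag arrays for 10 genes (22.2%), and below them for 2 (4.44%). Over all probe sets the shares were 12.1% and 8.67%. With the first Br array left out 21 of the 45 genes lay wholly above, and with the first Ag array left out 17 of the 45 did. Each of these array subsets gave 21.0% over all probe sets. The 10 genes were GH9C2, GH9B13, CSLA01, ATCSLC08, CSLC5, CSLC04, TBL39, TBL37, TBL16 and TBL18, and the 2 were TBL32 and TBL35.

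**Figure D1:**
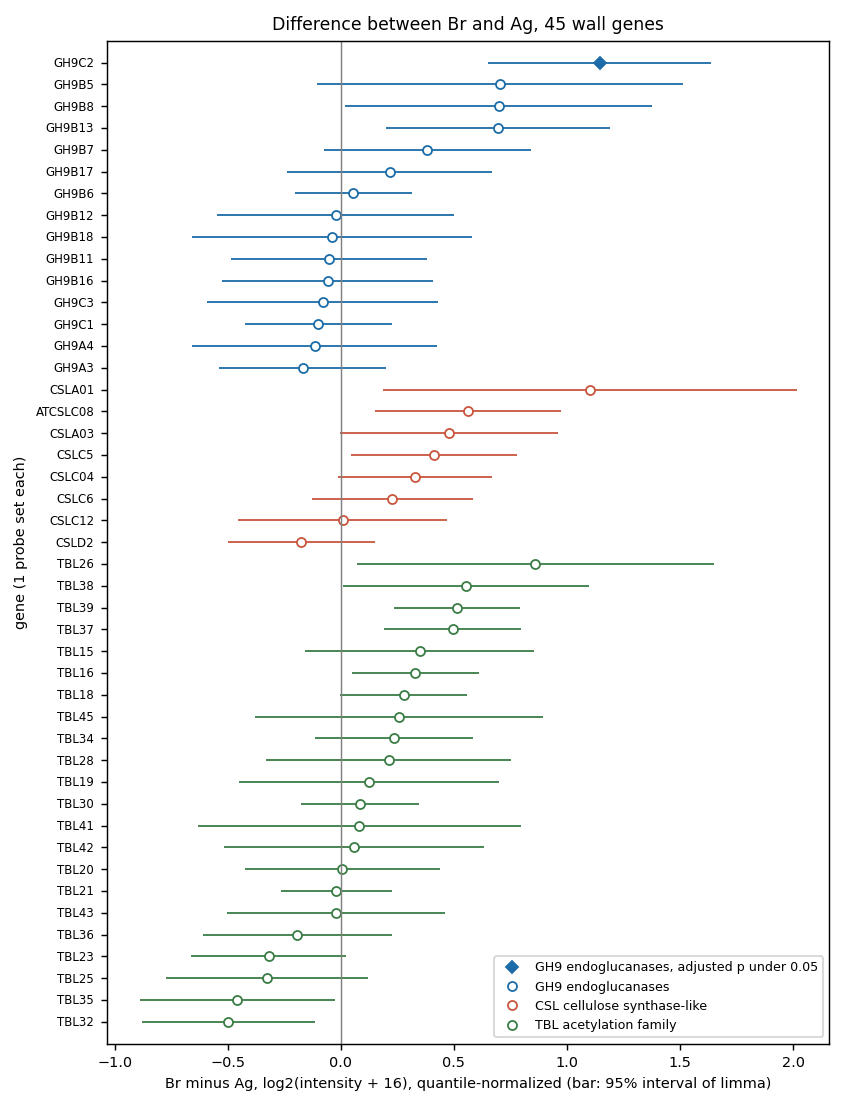
Difference between Br and Ag for each of the 45 genes, on the log2(intensity + 16) scale after quantile normalization, ordered within the GH9, CSL and TBL families; bars are 95% intervals of the limma fit (n = 3 arrays in each group). GH9C2, the filled diamond at 1.14, is the 1 gene with an adjusted p under 0.05, and the lowest value is TBL32 at -0.50.

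GH9C2 read 566, 611 and 518 on the Br arrays, against 262, 180 and 333 on the Ag arrays. Every Br array was above every Ag array, and the nearest readings were those of the third array of each group. The log2 difference was 1.14 ± 0.21 (SE, as for the log2 differences that follow), with a limma adjusted p of 0.045. The call rested on all 6 arrays: without any 1 of them the log2 difference stayed between 0.92 and 1.33, while the adjusted p was between 0.054 and 0.18. The call was also lost with another added constant in place of 16, at an adjusted p of 0.12 with 1 and 0.058 with 64. The other class C genes, GH9C1 and GH9C3, averaged 5.23 and 8.86 in Br and 6.23 and 9.23 in Ag, with log2 differences of -0.10 and -0.081 (limma adjusted p = 0.79 and 0.91). Class C thus held 1 gene with a strong reading and 2 at low intensity.

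Among the secreted class B endoglucanases, 0 of 10 passed the test. GH9B13 read 120, 99.6 and 171 in Br, against 89.2, 62.3 and 63.3 in Ag, without overlap, and its log2 difference was 0.69 ± 0.21 (limma adjusted p = 0.17). GH9B8 read 51.9, 111 and 112 in Br, against 36.3, 42.0 and 60.6 in Ag. Its first Br array lay inside the range of Ag, the other Br arrays lay above it, and the log2 difference was 0.70 ± 0.29 (adjusted p = 0.30). GH9B5 had the same layout at lower intensity, with 8.29, 42.2 and 42.4 in Br, against 15.4, 7.15 and 7.67 in Ag (log2 difference 0.70 ± 0.34, adjusted p = 0.38). GH9B7 read 438, 752 and 591 in Br, against 432, 429 and 495 in Ag, again with the first Br array among the Ag arrays (log2 difference 0.38 ± 0.19, adjusted p = 0.40).

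The remaining 6 class B genes, GH9B6, GH9B11, GH9B12, GH9B16, GH9B17 and GH9B18, and the class A genes GH9A3 (also named KOR3) and GH9A4 were dim. Each averaged under 30 over the 6 arrays, and their log2 differences lay between -0.17 and 0.22. The gene table places GH9B16, GH9B17 and GH9B18 next to each other on the genome, and likewise GH9B11 and GH9B12. In the run of 3, the Br means were 8.68, 7.35 and 16.3, against Ag means of 8.30, 3.06 and 15.6, and the groups overlapped for each. KORRIGAN itself, GH9A1, was not among the annotated probe sets.

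**Figure D2:**
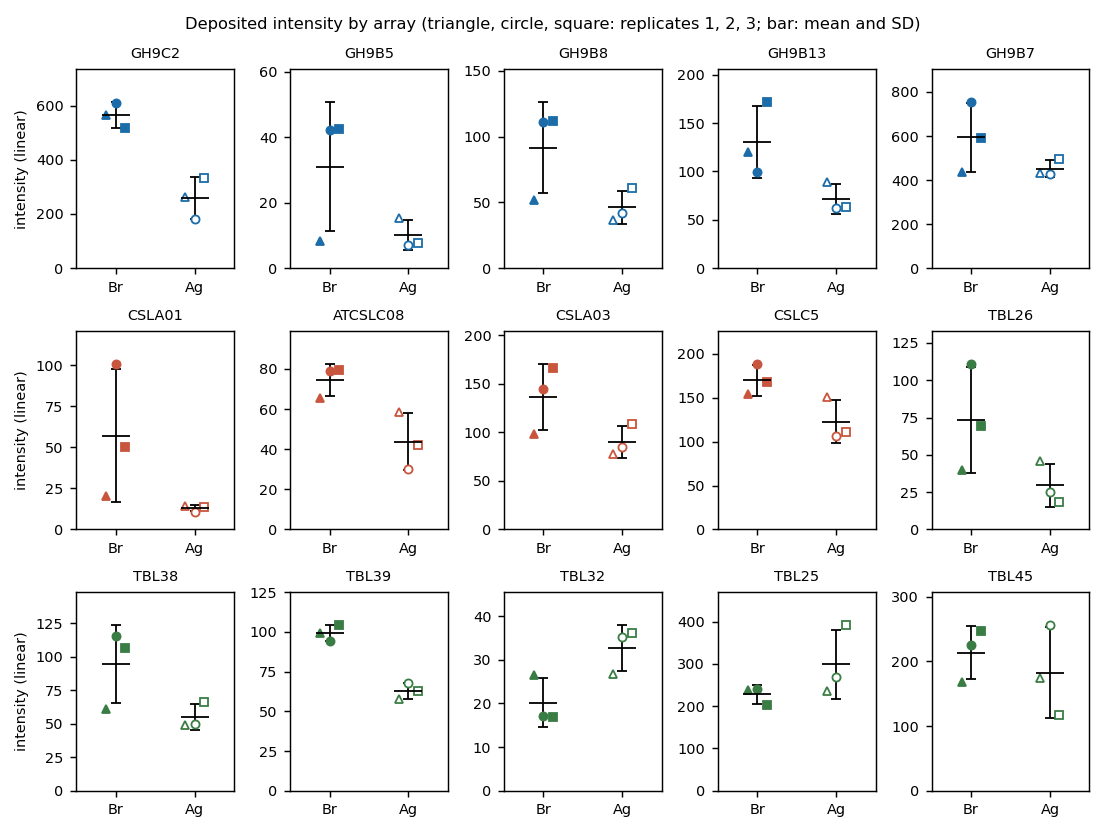
Deposited intensity on a linear axis from 0 for the 15 genes named by the rule, with the 3 Br arrays left of the 3 Ag arrays; triangles, circles and squares are replicates 1, 2 and 3, and bars give mean and SD. In GH9B5, GH9B8, GH9B7 and CSLA01 the triangle of Br lies near the Ag arrays, while in GH9C2 and TBL39 all Br arrays lie together above Ag.

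Among the CSL genes the log2 difference was positive for 7 of 8, with a median of 0.37, and 0 passed the test. Both mannan backbone synthases were higher on average in Br. CSLA01 read 20.6, 101 and 50.0 in Br, against 14.6, 10.8 and 13.9 in Ag, so the groups did not overlap, and the mean was 57.1 ± 40.6 in Br and 13.1 ± 2.02 in Ag (SD, n = 3 each). The spread of the Br arrays was wide, and the log2 difference was 1.10 ± 0.39 (limma adjusted p = 0.22). CSLA03 read 98.9, 145 and 166 in Br, against 77.5, 84.7 and 108 in Ag, with the first Br array inside the range of Ag (log2 difference 0.48 ± 0.20, adjusted p = 0.31).

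All 5 CSLC genes, which make the xyloglucan backbone, had a positive log2 difference, from 0.0070 to 0.56, although that of CSLC12 was -0.011 with median centring. ATCSLC08 read 65.5, 78.9 and 79.5 in Br, against 58.6, 30.3 and 42.1 in Ag, without overlap (log2 difference 0.56 ± 0.18, limma adjusted p = 0.18). CSLC5 read 154, 189 and 167 in Br, against 151, 106 and 111 in Ag, where the closest arrays were the first of each group (log2 difference 0.41 ± 0.16, adjusted p = 0.25). CSLC04, named after its values were seen because its groups did not overlap, read 102, 108 and 105 in Br, against 97.1, 63.3 and 75.5 in Ag (log2 difference 0.33 ± 0.14, adjusted p = 0.33). For these 3 genes the first Ag array was the highest Ag reading. CSLC6 and CSLC12 had log2 differences of 0.23 (95% interval -0.13 to 0.58) and 0.0070 (-0.45 to 0.47), and their groups overlapped. CSLD2, a gene of the class known for tip growth of root hairs, was the 1 CSL gene with a negative value: it read 116, 87.5 and 105 in Br, against 127, 116 and 104 in Ag (log2 difference -0.17, 95% interval -0.50 to 0.15).

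Of the 22 TBL genes, 0 passed. The log2 difference was positive for 15 and negative for 7, with a median of 0.10. The smallest adjusted p of the family was that of TBL39, which read 99.3, 94.0 and 104 in Br, against 57.5, 67.5 and 63.0 in Ag. Both groups were tight, with no overlap and a log2 difference of 0.51 ± 0.12 (limma adjusted p = 0.089). TBL37, named after its values were seen, read 118, 128 and 102 in Br, against 71.0, 81.5 and 72.3 in Ag (log2 difference 0.49 ± 0.13, adjusted p = 0.12). TBL38 read 61.2, 115 and 107 in Br, against 49.0, 49.7 and 66.4 in Ag, with the first Br array inside the Ag range (log2 difference 0.55 ± 0.23, adjusted p = 0.30). TBL16 and TBL18, also named because their groups did not overlap, had log2 differences of 0.33 and 0.28 (adjusted p = 0.24 and 0.32).

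The TBL members that acetylate xylan in Arabidopsis did not share a direction. Of the 5 measured, TBL28, TBL30 and TBL34 had log2 differences of 0.21, 0.084 and 0.24, and TBL32 and TBL35 of -0.50 and -0.46. TBL32 read 26.58, 17.2 and 16.8 in Br, against 26.65, 35.3 and 36.1 in Ag, so the groups were separated only narrowly, by their first arrays (limma adjusted p = 0.19). Its probe set carries the manufacturer's suffix for probes shared by related transcripts, so its reading may include another gene. TBL35 read 27.6, 33.5 and 33.6 in Br, against 35.7, 43.3 and 63.6 in Ag, also without overlap (adjusted p = 0.28). TBL28 and TBL30 are neighbours in the gene table and averaged 51.0 and 12.4 in Br and 37.5 and 9.75 in Ag, with overlapping groups.

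The mannan acetyltransferase genes were likewise split. TBL26 read 40.0, 111 and 69.4 in Br, against 45.9, 24.8 and 18.3 in Ag, with the first Br array below the first Ag array (log2 difference 0.86 ± 0.34, limma adjusted p = 0.27). TBL25 read 238, 241 and 203 in Br, against 236, 270 and 392 in Ag (log2 difference -0.33 ± 0.19, adjusted p = 0.46), and TBL23 had a log2 difference of -0.32 (adjusted p = 0.34). The mannan genes thus comprised 3 positive values, CSLA01, CSLA03 and TBL26, and 2 negative ones, with none of the 5 past the threshold. Among the other TBL genes, TBL45 read 168, 225 and 247 in Br, against 175, 256 and 117 in Ag, with the Br arrays inside the Ag range (log2 difference 0.26 ± 0.27, adjusted p = 0.71). TBL36 had a log2 difference of -0.19 (adjusted p = 0.67). The dim TBL15, TBL19, TBL20, TBL21, TBL41, TBL42 and TBL43 had overlapping groups and log2 differences between -0.024 and 0.35. TBL19 and TBL21, neighbours in the gene table, averaged 7.14 and 1.11 in Br and 4.45 and 1.10 in Ag.

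**Figure D3:**
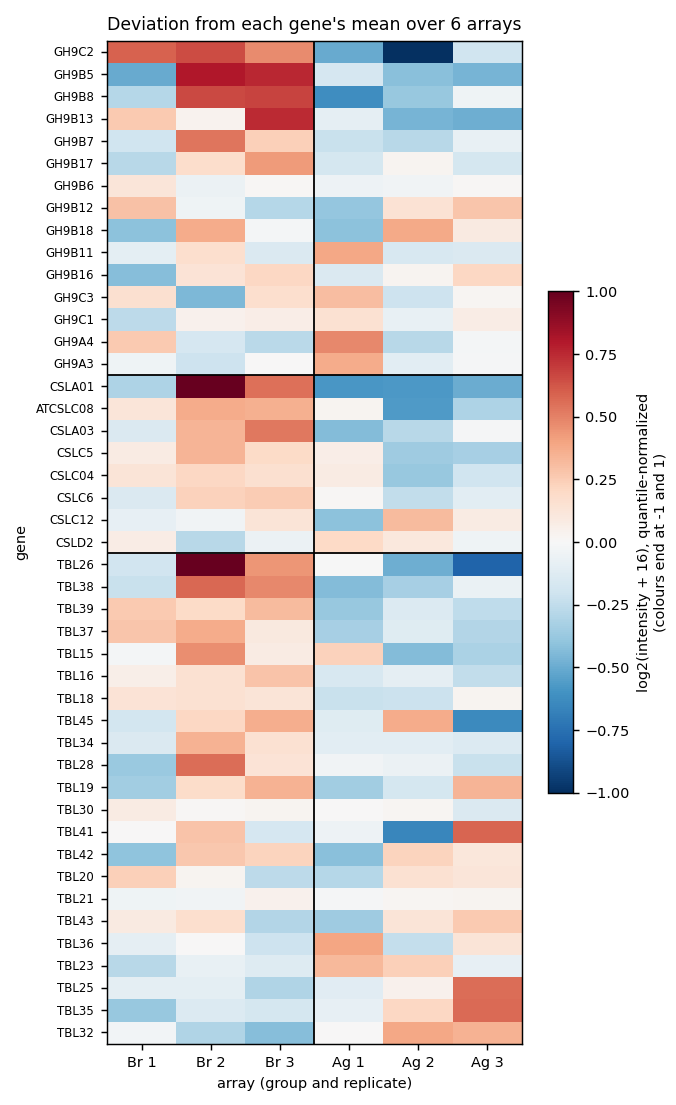
Normalized log2 value of each gene on each array minus that gene's mean over the 6 arrays, with Br arrays left of the line and Ag arrays right of it; red is above and blue below the gene's mean. The second and the third Br arrays are red for most genes at the head of each family, the first Br array is mixed, and TBL32 and TBL35 at the foot are blue or near white on the Br arrays and red on the second and the third Ag array.

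Dim and bright genes were also summarised apart. The 6-array mean was under 30 for 22 of the 45 genes, and 14 of these stayed under 16 on every array, where the added 16 draws log2 differences towards 0. These 22 had 11 positive and 11 negative values and a median of -0.0074, and they included GH9B5 at 0.70 and TBL32 at -0.50. The 23 brighter genes had 18 positive and 5 negative values and a median of 0.38, against -0.0031 over all probe sets at that brightness. Of the 23, 10 (43.5%) lay wholly above Ag and 1 (4.35%) wholly below, where all probe sets at that brightness gave 14.2% and 12.2%. This split is a description: a gene high in a single group can pass through that group, as CSLA01, TBL26 and TBL23 did, whose lower group averaged under 30. The GH9 median was -0.023 over 15 genes, and 0.70 over the 4 brighter genes. With the values as deposited it was 0.045, where the median of all probe sets was 0.028, and with any 1 array left out it lay between 0.051 and 0.14.

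Array by array, the first Br array read lower than the other Br arrays. On the second and the third Br arrays 33 and 32 of the 45 genes lay above their own 6-array mean, and on the first 18 did. On the 3 Ag arrays 15, 16 and 18 did. The median deviation from the gene mean was -0.080, 0.18 and 0.13 on the Br arrays and -0.11, -0.12 and -0.045 on the Ag arrays, while over all probe sets it stayed between -0.012 and -0.0028. The first Br array was the lowest of the Br arrays for 26 of the 45 genes (57.8%), against 38.0% of all probe sets. For CSL genes it was the lowest for 7 of 8.

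**Figure D4:**
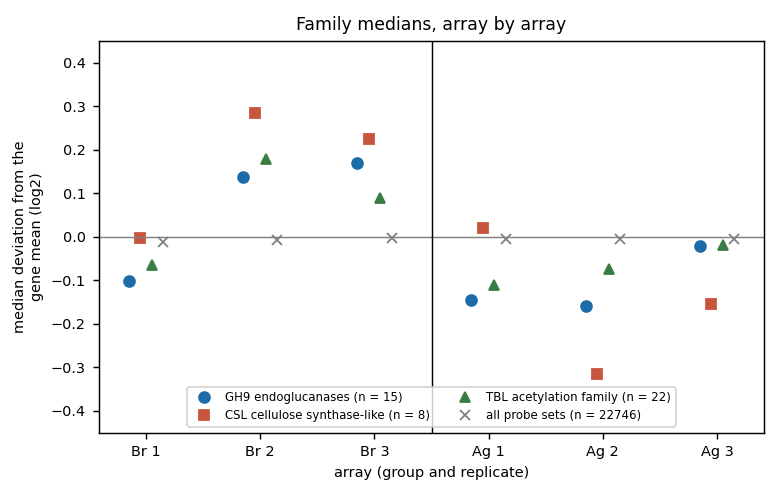
Median over each family of the deviation from the gene mean, for the 3 Br arrays and then the 3 Ag arrays; grey crosses are all 22746 probe sets. All 3 families lie above 0 on the second and the third Br arrays, and GH9 and TBL lie below 0 on the first Br array and on all Ag arrays.

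Without the first Br array the picture of single genes changed. Then 4 genes passed, all higher in Br, where 1.97% of all probe sets were called higher: CSLA01 (log2 difference 1.54 ± 0.26, limma adjusted p = 0.035), GH9B5 (1.13 ± 0.14, adjusted p = 0.020), GH9B8 (1.02 ± 0.19, adjusted p = 0.046) and TBL38 (0.81 ± 0.15, adjusted p = 0.049). For GH9B5, GH9B8 and TBL38 the array left out read inside the Ag range, and for CSLA01 it was the Br reading nearest to Ag. Leaving it out therefore raised these differences by construction, and the calls are a description. GH9B5 was also dim, with every Ag reading under the added 16. GH9C2 missed the threshold without the first Br array (adjusted p = 0.068), with an almost equal log2 difference of 1.14. The number of positive values was 31 of 45, with a median of 0.28, and 18 genes were higher at an unadjusted p under 0.05, where all probe sets gave 10.8%. The remaining 2 Br arrays lay wholly above Ag for 21 of the 45 genes, where 21.0% of all probe sets did. They lay wholly below for 2 of the 45, where 16.5% of all probe sets did. With the first array of both groups left out, GH9B5 alone passed, where 1.23% of all probe sets were called higher, so 1 of 45 was close to the background there too. With any single array other than the first Br array left out, 0 of the 45 genes passed.

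Other genes of wall synthesis could hardly be compared. The lists held 79 partners of cellulose synthesis, of wall acetylation, of xylan and xyloglucan synthesis and of their regulators. Of these, 4 could be matched by name to a probe set annotated to exactly 1 gene. By limma 0 of them passed, and 0 had an unadjusted p under 0.05. THE1, a receptor kinase that senses wall damage, read 98.4, 143 and 140 in Br, against 112, 77.2 and 112 in Ag (log2 difference 0.27 ± 0.19, limma adjusted p = 0.55). COB, which encodes a membrane-anchored protein needed for oriented cellulose deposition, read 793, 1138 and 1106 in Br, against 995, 975 and 781 in Ag (log2 difference 0.19 ± 0.19, adjusted p = 0.69). In both the groups overlapped. The xylan synthesis genes GUT2 (also named IRX10) and IRX15 had log2 differences of 0.015 and -0.056.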

How the data were processed

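The authors deposited 1 linear intensity per probe set from 6 Arabidopsis ATH1 arrays, which were hybridised with biotin-labelled RNA per the labels' protocols. The authors had scaled each array: the mean without the lowest and highest 2% of values was 100 on every array, as tested on the file. The summarisation method is not given in the sources used here. Arrays were grouped by sample title, and all 6 columns had one. After removal of 64 control probe sets, values were taken as log2(intensity + 16), quantile-normalized, and tested with limma 3.58.1 (R 4.3.3), Br minus Ag, with Benjamini-Hochberg adjustment over 22746 probe sets. The fit was tested on simulated data. Symbols came from the GEO platform annotation (13513 probe sets with 1 gene, 503 with several, 8730 with none listed), updated with the TAIR10.1 gene table, which matched all 45 genes. FDH was dropped from the epidermis list because its symbol belongs to another gene in that table.

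The named genes are every called member, the 4 of largest absolute log2 difference and the 2 of highest mean in each family, and 2 companion genes; other members are given to account for the set. CESA1, CESA3, CESA4, CESA6, CESA7, CESA8, GH9A1 and TBL29 were to be named too and had no annotated probe set of that symbol. Members, lists and tests were chosen with earlier results of these data known. Alternatives covered scaling, pseudocount, dim probe sets, the variance model, array weights, the replicate block, the threshold, probe set choice and each array left out. Plots were drawn with matplotlib 3.10.9.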

Additional observations from a re-analysis of the deposited data

How the results depend on the processing

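The count of called genes among the 45 was 1 with values as deposited, with median centring, without probe sets of mean intensity under 30, with a trend and robust fitting, with array weights, and with the 2 probe sets shared by GH9 genes added. It was 0 with a pseudocount of 1 or 64 and at a threshold of 0.01, and 0 to 4 with 1 array left out, 4 without the first Br array and 0 without any other. Over all probe sets the count of 473 became 148 with a pseudocount of 1, 889 with array weights, 111 at 0.01, and 105 to 884 with 1 array left out. With the replicate number as a block, 347 probe sets and 0 of the 45 genes passed (GH9C2 adjusted p = 0.075). Same-numbered arrays deviated from their group means with correlations of 0.32, 0.029 and 0.11, and 3 of 6 arrays correlated best with their own number, so the numbers were not taken as pairs.

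The median log2 difference of the 45 genes, 0.12, became 0.28 with a pseudocount of 1, 0.039 with 64, 0.23 with array weights and 0.38 without the dim probe sets; with 1 array left out it was 0.098 to 0.28, highest without the first Br array. The TBL median became 0.27 with a pseudocount of 1, 0.034 with 64, 0.27 without dim probe sets and 0.21 with array weights, and was 0.029 without the second Br array and 0.28 without the first. The GH9 median of -0.023 turned to 0.70 without the dim probe sets, and to between 0.051 and 0.14 with any 1 array left out. Of the 45 genes, 24 lay wholly above Ag and 5 wholly below without the first array of both groups (31.0% and 21.0% of all probe sets). Without dim probe sets 10 lay above and 1 below (14.2% and 12.2%). That filter kept CSLA01, which is among the 10, TBL26 and TBL23, whose lower group averaged under 30. With 1 array left out 10 to 21 genes lay above and 2 to 3 below. Over all probe sets the share was higher with fewer arrays where it was counted: 21.0% lay above without the first Br or the first Ag array, against 12.1% with all arrays. Shares for the other single arrays left out are not given here, so those counts have no background. These medians, and groups of 3 arrays, rest on few readings, and differences at an intensity under about 16 are compressed on the scale used. Of 253 alternatives of the 17 named genes, 238 kept their side of the threshold, 10 lost the call of GH9C2, 5 gave a new call, and 0 turned the sign.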

Other observations

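A pair of probe sets are shared by 2 GH9 genes each and are therefore outside the set. The probe set of GH9B15 and GH9B14 averaged 10.1 ± 3.49 in Br and 6.88 ± 3.79 in Ag, and that of GH9B10 and GH9B9 averaged 1.93 ± 2.05 in Br and 6.42 ± 10.1 in Ag (SD, n = 3 each), the last resting on a reading of 18.1 on the first Ag array. Both had overlapping groups. TBL40 is named only among the synonyms of its gene. Its 2 probe sets had log2 differences of 0.044 and 0.010 between Br and Ag, and in both the first Br array gave the lowest of all 6 readings, 23.5 and 54.8.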
